A study of Saccharomyces cerevisiae with 2 samples.

Results

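The strains described here are 8 yeast deletion strains that each lack a gene for resolving branched DNA: SGS1, TOP3 and RMI1 of the Sgs1 helicase complex, the nuclease genes MUS81, MMS4, SLX1 and SLX4, and the helicase gene SRS2. They were chosen by gene function, as the features of the tag array that the platform annotates to these genes, and all 8 had values among 5325 named strains. The 2 arrays each compared a pair of haploid deletion pools of Saccharomyces cerevisiae. Both pools descended from the same collection of 5896 heterozygous diploid knockouts, which can be converted to haploids, and each haploid lacked 1 gene. The control pool carried a control plasmid, and the LCD1 pool carried LCD1 behind the galactose-inducible GAL1 promoter. Both plasmids were selected by URA3, and both pools grew for 3 days at 30 °C on medium in which galactose at 2% was the only carbon source, on which this promoter is active. Each strain carries a pair of short DNA tags, and the ratio of tag signals reports how abundant the strain was in the LCD1 pool relative to the control pool. By its title, the series was about deletions that are lethal in combination with LCD1 overexpression. The titles call the arrays experiment 1 and experiment 2, and whether separate cultures lay behind them is not stated, so the spread between them may be technical.

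Sgs1 is the yeast RecQ-family DNA helicase. Together with the type I topoisomerase Top3 and the structural subunit Rmi1 it unlinks double Holliday junctions without leaving a crossover, and cells without Top3 or Rmi1 grow slowly. Mus81-Mms4 and Slx1-Slx4 are endonucleases that cut branched intermediates, and mutations in their genes were found in a screen for lethality in cells without SGS1, hence the SLX names. Slx4 is also a scaffold that binds Rtt107 and Dpb11 and is phosphorylated by the checkpoint kinases. Srs2 is a helicase that limits homologous recombination. LCD1, also named DDC2, encodes the partner subunit of the checkpoint kinase Mec1.

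All values below are log2 ratios, LCD1 pool over control pool, in a direction that is likely but not stated by the labels. The strain without LCD1 set the sign. Its deposited ratios were 0.05 and 0.03 on the first tag and 0.44 and 0.73 on the second, and a haploid without this essential gene needs the LCD1 plasmid to grow. In the opposite direction, all signs given here would turn, so that SLX4 would be higher and RMI1 lower in the LCD1 pool. On each array the 2 tag blocks were centred on their medians, and a strain value is the mean of both tags. Centring matters for small values: without it, the median over all strains was 0.16 in place of 0.036.

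None of the 8 strains passed limma's test, and none was at least 2-fold lower or at least 2-fold higher on both arrays. The background for these counts was low as well. Among all strains, 1.82% were 2-fold lower and 0.695% were 2-fold higher on both arrays, and 0% passed limma at an adjusted p under 0.05. These shares correspond to 97 lower and 37 higher strains, or to 78 and 60 without centring. All-strain shares, ranks and spreads in this report include deletions of essential genes, such as DNA2. None of the 8 genes is essential, and the shares without essential genes were not computed. At an unadjusted p under 0.05, limma gave 10.8% of all strains as lower and 11.6% as higher, and 2 of the 8 strains, SLX4 as lower and RMI1 as higher. With 2 arrays an exact sign-flip test cannot go below a two-sided p of 0.5. The number of arrays thus limits the precision, and a missed threshold does not show that a strain was equally abundant in both pools.

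The 8 strain values had a median of 0.22, with 6 above 0 and 2 below, beside a median of 0.036 and 54.1% above 0 over all strains. In order from the lowest they were SLX4, MMS4, SLX1, SGS1, MUS81, TOP3, SRS2 and RMI1. Past a threshold of 1.5-fold on both arrays there was 1 of the 8, RMI1 on the higher side, where 4.34% of all strains were lower and 3.87% higher. The plot of feature values by strain shows both the levels and how well they repeated.

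**Figure D1:**
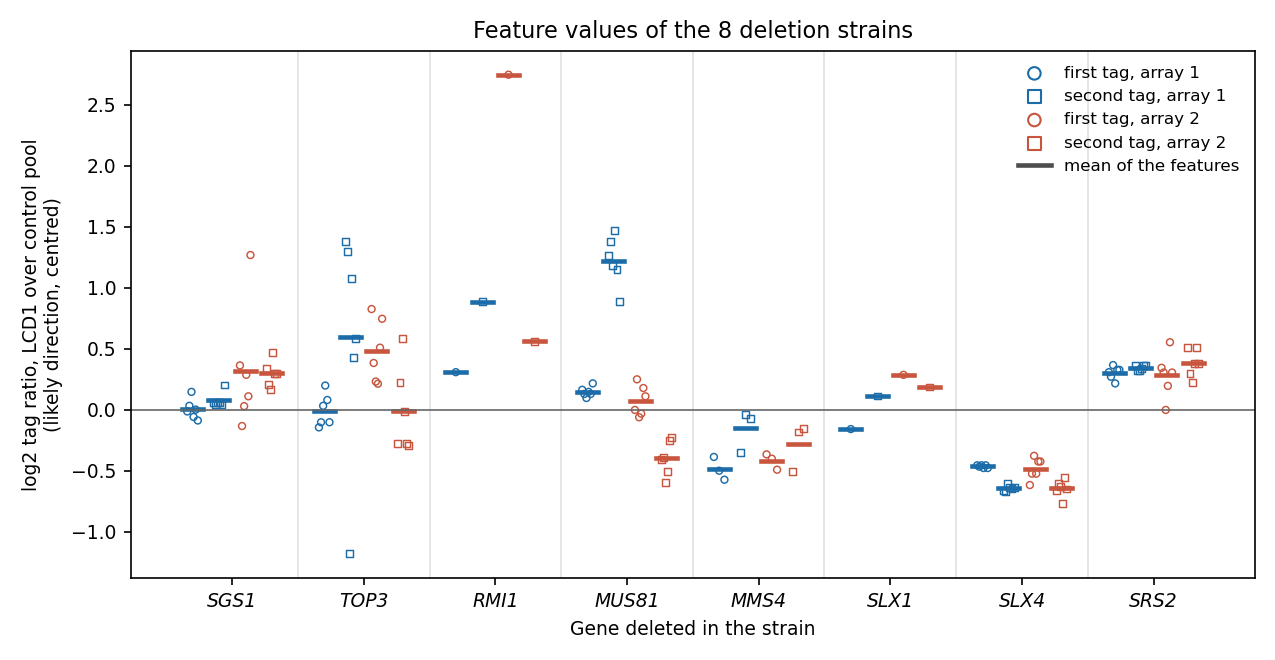
Log2 tag ratio of every feature of the 8 deletion strains, LCD1 pool over control pool in the likely direction, by tag (circles for the first, squares for the second) and array (blue for array 1, red for array 2); bars are means of the features of a tag on an array. SLX4 lies below 0 and SRS2 at or above 0 in every feature, while the second tag of MUS81 lies above 0 in all 6 features on array 1 and below 0 in all 6 on array 2.

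Within the Sgs1 complex, the strain without RMI1 stood highest. RMI1 had a single feature per tag. Array 1 gave 0.31 for the first tag and 0.89 for the second, and array 2 gave 2.75 and 0.56. All 4 values were above 0, but they lay far apart: the first tag on array 2 was the 15th highest of all strains there, and the other 3 were moderate. The strain value was 1.13 ± 0.75 (SD, n = 2 arrays), which ranked 76 from the top of 5325 strains, with a limma 95% interval from 0.20 to 2.05 and an adjusted p of 0.187. On the array without the extreme reading the strain value was 0.60, and on the other 1.65.

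The strain without SGS1, the helicase subunit, ranked 3462 from the lowest of 5325 strains. On array 1 its tags read 0.0046 (first) and 0.080 (second), and on array 2 they read 0.32 and 0.30. All 4 values were above 0, although array 1 was almost at the centre and only array 2 lay clearly above it. The strain value was 0.18 ± 0.19 (SD, n = 2; limma adjusted p 0.482, 95% interval -0.24 to 0.59). One of the 6 features of the first tag on array 2, at 1.27, stood apart from the others, which ran from -0.13 to 0.36. Taking the median of the features in place of the mean gave a strain value of 0.14. The interval of the mean-based value contained 0 and ended short of a 2-fold change in either direction. It rests on 2 arrays whose spread may be technical, so it does not exclude such a change.

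The strain without TOP3, the topoisomerase subunit, gave similar strain values on both arrays from tags that disagreed. The first tag stood at -0.0050 on array 1 and 0.49 on array 2, while the second stood at 0.60 and -0.0080. The tag that was raised on one array was at the centre on the other, so that the small spread of the strain value, 0.27 ± 0.041 (SD, n = 2; limma adjusted p 0.294), came from averaging unlike tags. The features of the second tag were also scattered. On array 1 they ran from -1.18 to 1.38, with an SD of 0.95 over 6 features, which was larger than in 93.2% of the strains with 5 or more features in that block. The median feature SD within a tag was 0.126 over the 793 strains with that many features.

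Among the nuclease strains, SLX4 was the lowest and the most repeatable. The first tag gave -0.46 and -0.48 on arrays 1 and 2, and the second gave -0.64 on both. All 24 readings of its 12 features were below 0. The strain value was -0.56 ± 0.0062 (SD, n = 2), a ratio 1.47-fold lower in the LCD1 pool, and ranked 392 from the lowest of 5325. Limma gave an adjusted p of 0.158 and a 95% interval from -0.92 to -0.20. An SD between arrays smaller than this occurred in 2.08% of all strains. SLX4 had 6 features per tag, whereas only 793 of the 5325 strains had 5 or more. The share was not computed among strains with as many features.

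SLX1 encodes the catalytic partner of Slx4, and its deletion strain did not show the same values. With 1 feature per tag, its readings were -0.16 (first tag) and 0.11 (second tag) on array 1, and 0.29 and 0.19 on array 2. The strain value changed sign between arrays, from -0.022 to 0.24, with a mean of 0.11 ± 0.18 (SD, n = 2; limma adjusted p 0.653, 95% interval -0.31 to 0.52). The intervals of the SLX1 and SLX4 strains overlap, and the difference between the 2 strains was not tested.

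The strain without MMS4, the regulatory partner of Mus81, was lower by a small amount on every tag and array after centring. First and second tag stood at -0.49 and -0.15 on array 1, and at -0.42 and -0.28 on array 2. The strain value was -0.33 ± 0.022 (SD, n = 2), or 1.26-fold lower, with a limma adjusted p of 0.241 and a 95% interval from -0.69 to 0.026. MMS4 had 3 features in each block, all below 0 on both arrays. The gene table of assembly R64 lists YBR100W, once a separate reading frame, as a synonym of MMS4, so its features may belong to more than 1 deletion strain. Their identity was not resolved here. In the second block 1 of the 3 read -0.35 and -0.51 on arrays 1 and 2, and the other two lay between -0.18 and -0.036.

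The strain without MUS81, the catalytic subunit, changed direction between arrays. The first tag was close to the centre, at 0.15 and 0.075 on arrays 1 and 2. The second was at 1.22 on array 1 and at -0.39 on array 2. On array 1 the 6 features of the second tag ran from 0.89 to 1.47, and on array 2 from -0.60 to -0.22, so that these ranges did not overlap. How often such ranges lie apart in other strains was not counted. The median feature SD within a tag was 0.126 over 793 strains. The median array difference of the second tag was 0.23 over all strains, an unlike measure over an unlike set. For MUS81 itself the second tag had a feature SD of 0.20 on array 1 and 0.14 on array 2. Features that lay close together on an array thus did not show that the value of this tag repeats. The gap of 1.62 between arrays was wider than for this tag in 94.1% of all strains. The strain value was 0.26 ± 0.60 (SD, n = 2; limma adjusted p 0.558, 95% interval -0.51 to 1.03), from 0.69 on array 1 and -0.16 on array 2.

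The strain without SRS2, which acts apart from the Sgs1 complex, was higher by a small amount, and its strain value differed little between arrays. Arrays 1 and 2 gave 0.30 and 0.29 for the first tag, and 0.35 and 0.39 for the second. No feature was below 0, and the 4 values spanned 0.10, a narrower span than in all but 0.923% of strains. SRS2 had 6 features per tag, and this share was not computed among strains with as many. The strain value was 0.33 ± 0.0080 (SD, n = 2), or 1.26-fold higher, with a limma adjusted p of 0.243 and a 95% interval from -0.028 to 0.69. It ranked 1177 from the top, so values of this size were common in the pools.

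**Figure D2:**
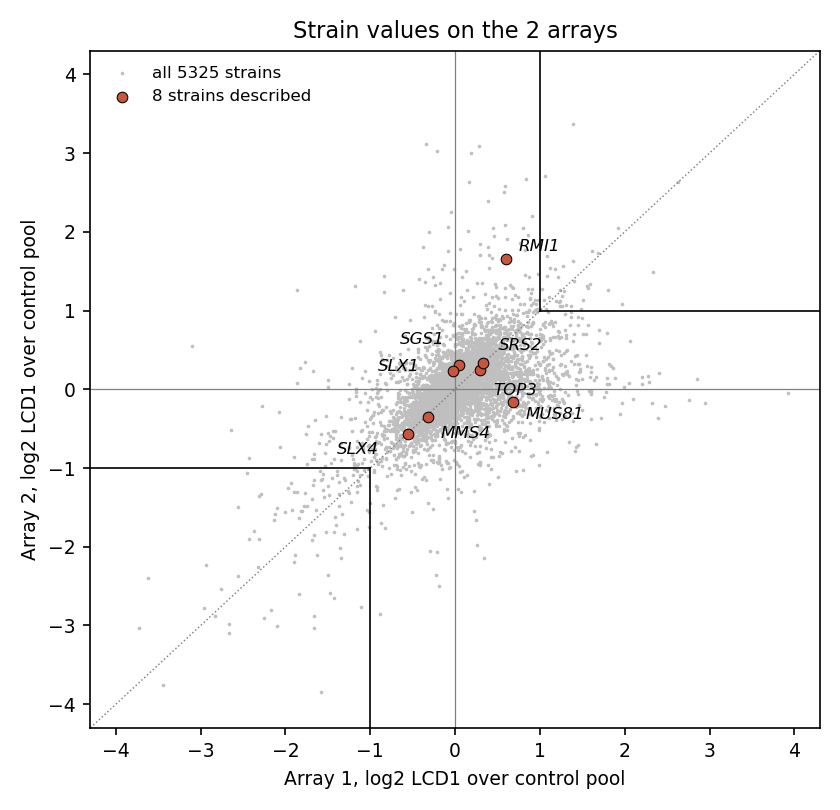
Strain value (mean of both tags, log2 of LCD1 over control pool in the likely direction) on array 1 against array 2 for all 5325 strains (grey) and the 8 strains described (red); the dotted line marks equal values and the black corners enclose strains at least 2-fold lower or higher on both arrays. SLX4 and MMS4 lie near the dotted line below 0, RMI1 lies above it at 0.60 and 1.65, MUS81 lies on opposite sides of 0, and none of the 8 is inside a corner.

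By sign, 5 of the 8 strains read the same way throughout. SGS1, RMI1 and SRS2 were above 0 in all 4 tag values, and SLX4 and MMS4 were below 0 in all 4. The other 3 strains, TOP3, MUS81 and SLX1, had values on both sides. Among the 5309 strains with 4 values, 16.8% were above 0 in all 4 and 16.4% below 0 in all 4, together 33.2%, beside 5 of 8 here. These sets depend on centring: without it, TOP3 joined the strains above 0 in all 4 values, and MMS4 had 1 value above 0, the second tag on array 1 at 0.021. Uncentred, 4 of the 8 were above 0 in all 4 values (29.2% of all strains) and 1, SLX4, was below 0 in all 4 (9.63%). Both arrays had the same sign for 6 of 8 strains on the first tag (70.1% of all strains) and for 6 of 8 on the second (68.5%). Both tags had the same sign for 6 of 8 strains on array 1 (59.2%) and for 6 of 8 on array 2 (59.3%).

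No difference between the tags of a strain passed the test. First minus second tag was tested with limma over the 5309 strains with both tags, and 0 of 8 passed, also at an unadjusted p under 0.05, where 14.9% of all strains did. No strain of all passed at an adjusted p under 0.05, a share of 0%. The widest tag differences among the 8 turned sign between arrays. For MUS81 first minus second tag was -1.07 on array 1 and 0.47 on array 2, for TOP3 it was -0.61 and 0.49, and for RMI1 it was -0.58 and 2.19. SLX4 (0.18 and 0.16), MMS4 (-0.33 and -0.14) and SRS2 (-0.042 and -0.10) kept the sign of this difference on both arrays. A 2-fold tag difference the same way on both arrays was seen in 7.87% of all strains and in 0 of the 8.

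The difference between arrays sorted the strains differently for the 2 tags. For the first tag it was widest in RMI1, whose value on array 1 was 2.44 below that on array 2, wider than in 99% of all strains. For the second tag it was widest in MUS81. The median absolute difference between arrays was 0.27 for the first tag and 0.23 for the second over all strains. SLX4 and SRS2 lay far below these medians on both tags, at 0.017 and 0.00058 for SLX4 and at 0.019 and 0.042 for SRS2. Both had 6 features per tag, more than most strains.

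**Figure D3:**
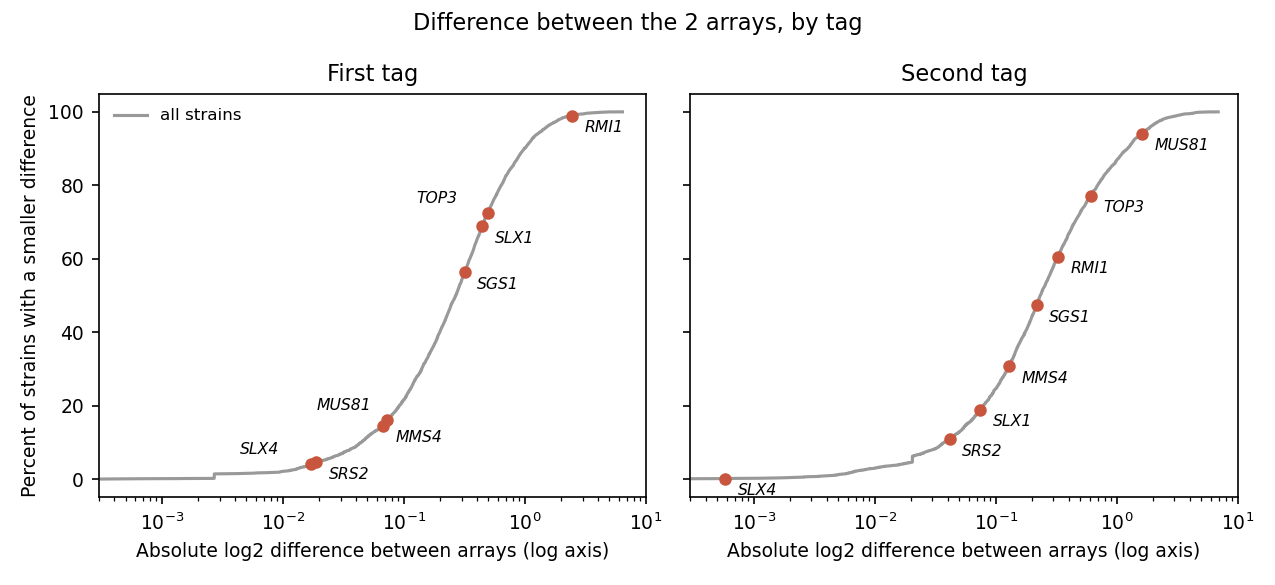
Cumulative share of all strains (y axis, percent) against the absolute log2 difference between array 1 and array 2 (x axis, log scale), for the first and the second tag, with the 8 strains marked in red. SLX4 and SRS2 lie at the lower end for both tags, RMI1 at the upper end for the first tag and MUS81 at the upper end for the second.

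Partner subunits did not rank among each other's nearest strains. Likeness was taken as the Euclidean distance over the first and second tags of both arrays, as a description over 4 values that share pools and arrays. The best rank of any partner was 438, of SGS1 in nearness to TOP3. Of 5308 other strains, TOP3 ranked 1304 in nearness to SGS1, and RMI1 ranked 4925. MMS4 ranked 2891 in nearness to MUS81, and SLX1 ranked 2394 in nearness to SLX4. For RMI1 and for MUS81 the distance to a partner rested largely on 1 tag value. RMI1 stood at 2.75 and SGS1 at 0.32 on the first tag of array 2. MUS81 stood at 1.22 and MMS4 at -0.15 on the second tag of array 1. Whether partners differ beyond the spread between tags and arrays was not tested. Among the 8, SGS1 and SLX1 were nearest to each other (distance 0.20), and SLX4 and MMS4 were nearest to each other (0.61). Of the 5308 other strains, SLX1 ranked 40 in nearness to SGS1, and SGS1 ranked 31 in nearness to SLX1. MMS4 ranked only 376 in nearness to SLX4, and SLX4 ranked 845 in nearness to MMS4. The 3 strains nearest to SGS1 lacked APT1, YLR326W and HUB1, at distances of 0.10, 0.10 and 0.11, with strain values of 0.19, 0.19 and 0.15.

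The 3 lists of related genes gave the setting of these values, and again 0 of their strains passed limma's test at an adjusted p under 0.05. The list of other structure-selective nucleases and their cofactors had 7 of 9 strains below 0 and a median of -0.11, or 4 of 9 below 0 and a median of 0.017 without centring. Its 1 strain past the 2-fold rule was RAD27, which lacks the flap endonuclease of Okazaki fragments, at -1.68 ± 0.19 (SD, n = 2). The largest value after it was that of DNA2, a nuclease and helicase, at 0.43 ± 0.088. DNA2 is essential, so that deletion haploids are not thought to grow in either pool, and its tags read oppositely on both arrays, at -1.57 and 2.30 on array 1 and at -1.27 and 2.24 on array 2. YEN1, whose product cuts Holliday junctions as Mus81-Mms4 does, stood at -0.11 ± 0.13. YEN1 was picked out after its value was seen.

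The other DNA helicases and topoisomerases had 5 of 8 strains above 0, with a median of 0.14 and none past the 2-fold rule. The median was 0.26 without centring, 0.078 and 0.065 with the first or second tag alone (4 of 8 above 0 in each), and 0.058 with 4 of 7 above 0 without TOP2, an essential gene. TOP1, which lacks topoisomerase I, read 1.78 and 1.55 on the first tag of arrays 1 and 2 and -0.050 and 0.024 on the second, a strain value of 0.83 ± 0.053. Only the first tag was raised. RAD5, which lacks a helicase and ubiquitin ligase of damage tolerance, was lower on every tag and array, at -0.62 and -0.67 on the first tag and at -0.76 and -0.77 on the second, with a strain value of -0.71 ± 0.024. RAD5 thus shared its sign on every tag and array with SLX4. All 4 tag values were below 0 in 16.4% of the 5309 strains with 4 values. At an unadjusted p under 0.05, limma gave 1 strain of this list as lower and 1 as higher, and the same counts for the list of nucleases. The higher nuclease strain was that of DNA2, and without this essential gene the nuclease counts were 1 lower and 0 higher.

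Scaffolds and modifiers of Sgs1, Slx4 or Mus81 had 13 of 16 measured strains above 0, a median of 0.37 and none past the 2-fold rule. At an unadjusted p under 0.05, limma gave 4 of the 16 as higher and 0 as lower, and 2 and 0 of the 8 that are not essential. The largest values were those of NSE4 (1.07 ± 1.13) and NSE5 (0.99 ± 0.44), subunits of the Smc5-Smc6 complex, and both genes are essential. Without the 8 essential genes of the list, 6 of the other 8 strains were above 0. Their median was 0.205, beside 0.220 for the 8 strains described. The share of higher strains at this unadjusted p was 11.6% over all strains. Chosen after their values were seen, SLX5 and SLX8, which encode a SUMO-targeted ubiquitin ligase and were collected with the SLX nuclease genes, were above 0 in all 4 tag values, with strain values of 0.29 ± 0.045 and 0.53 ± 0.24. The genes of both Slx4-binding proteins named above, RTT107 and DPB11, were also picked after their values were seen. RTT107 stood at -0.44 ± 0.29, with 0.17 on array 1 and -0.73 on array 2 for the second tag. DPB11, an essential gene, stood at 0.51 ± 0.49, with all 4 tag values above 0, so that these strains lay on opposite sides of 0. SMC6, of the list fixed, was not analysed here.

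**Figure D4:**
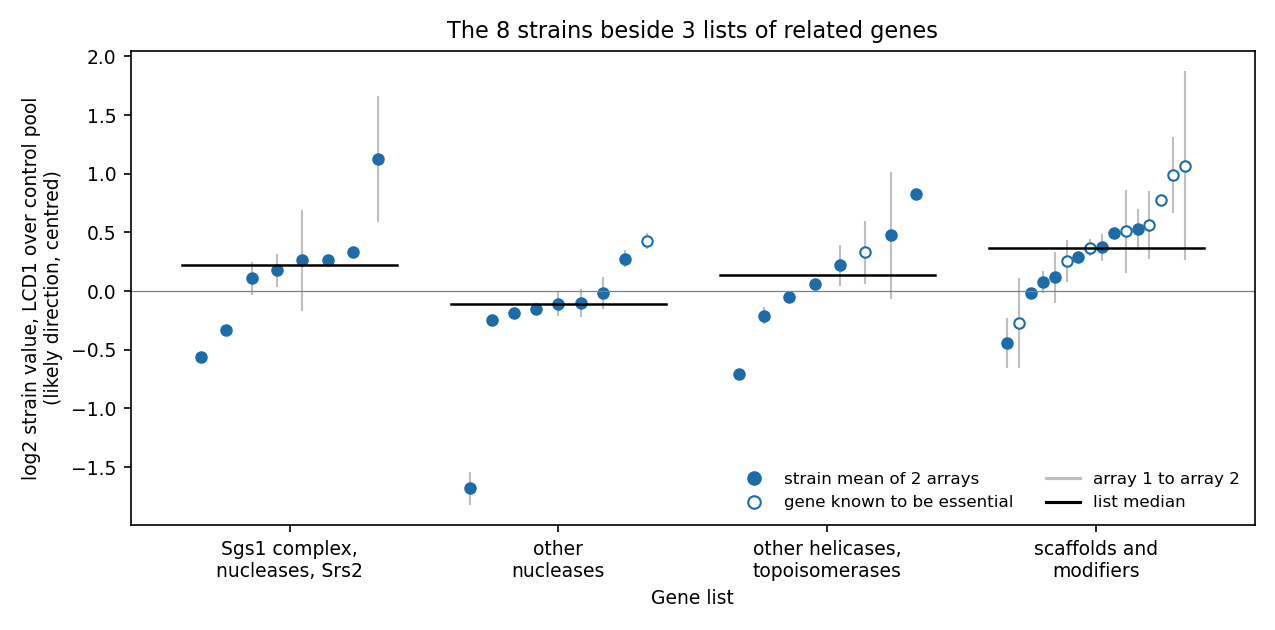
Strain values (log2 of LCD1 over control pool in the likely direction, mean of 2 arrays) of the 8 strains and of 3 lists of related genes, sorted within each list; grey lines join array 1 and array 2, black bars are list medians and open circles are genes known to be essential. RAD27 is the lowest strain at -1.68, the scaffold list has the highest median at 0.37, and the list of other nucleases has the lowest at -0.11. Without essential genes the scaffold median is 0.205, below the 0.220 of the 8 strains.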

How the data were processed

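On both arrays Cy5 marked tag DNA of the control pool and Cy3 that of the LCD1 pool. The arrays were read with GenePix 5.1, per the labels' descriptions. Dye and pool were therefore confounded. The deposited values are log2 ratios, as read from the values: 100% of them were whole hundredths within 0.001 on a linear scale. How they were normalized, and over which dye, is given neither by the labels nor by the file, and the deposited median was -0.136 on both arrays. Intensities are not part of the table, so how far signals lay above background is unknown. Of 20036 features with a value, the platform annotation named 18794, and 4 symbols had no match in the R64 gene table. Features up to number 10971 were taken as the first tag and later ones as the second.

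The sign was turned, features were averaged per gene and tag block, blocks were centred on their medians and tags were averaged (R 4.3.3). Strain values and tag differences were tested against 0 with limma 3.58.1 over all strains (Benjamini-Hochberg), with 1 residual and 2.42 prior degrees of freedom for strain values. The procedure was run on simulated data in which, after centring, the tags of a strain differed only by feature noise. Real tags differed by a median of 0.38 on array 1 and 0.34 on array 2. The simulation thus does not show how the procedure handles tags that disagree. The members, the 3 lists, the 2-fold rule and the tests were chosen with earlier results of these data known. Named genes were all 8 members and, per list, strains past the 2-fold rule and the largest 2 by absolute value. YEN1, SLX5, SLX8, RTT107 and DPB11 were added after their values were seen. A further list is not reported here. Alternatives covered centring, tags, scaling, features, thresholds and arrays.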

Additional observations from a re-analysis of the deposited data

How the results depend on the processing

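Across 64 recomputed strain values of the 8 strains under 8 settings that could change them, 62 kept their direction. None of the 8 passed limma's test in any setting where one could be run. The 2 exceptions came from leaving out an array: MUS81 ranged from -0.16 to 0.69 and SLX1 from -0.022 to 0.24. SLX4 ranged from -0.64 to -0.43 over its 10 alternatives. Its lowest adjusted p, 0.0757, came from a limma fit of 4 tag values, whose p cannot be taken at face value for the reason given below. The lowest of the other limma settings was 0.156, with the strains that had both tags on both arrays. The median of the 8 strains was 0.34 without centring, 0.14 with the first tag alone, and 0.17 to 0.24 on single arrays. On single arrays, 0 to 1 of the 8 passed the 2-fold rule (RMI1, without array 1), beside 150 to 185 lower and 137 to 253 higher strains of all. With a threshold of 1.5-fold on both arrays 1 of the 8 passed, RMI1 as higher, beside 231 lower and 206 higher strains. The first tag alone gave 270 lower and 98 higher strains and the second alone 30 and 80, with none of the 8 in either. Lower strains made up 72.4% of those past the rule, but 56.5% without centring, which gave 60 higher strains. The limma fit of 4 tag values called 24 strains, none of the 8 and RAD27 of the lists. It counts both tags of an array as separate although they share pools and arrays, so its p cannot be taken at face value. Its adjusted p was above that of the main fit for TOP3, RMI1 and MUS81, and below it for the other strains of the 8. Using the first listed feature of each gene, an alternative chosen after seeing the data, kept every direction of the 8. The cause of these changes was not tested. No paired analysis was possible because both arrays belong to 1 group and each ratio already pairs its pools. With no intensities, readings near background cannot be told from others.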
